A study of Homo sapiens with 4 samples.

Results

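Lysosomal enzymes and membrane proteins were examined in THP1 leukemia cells in which MLL-AF9 had been knocked down. The group was a list of 47 gene names, with no measured value in its rule. It was chosen with earlier results of these data known. The list holds the acid hydrolases of the lysosome, the carrier proteins of its lipids, proteins of its limiting membrane and the transcription factor TFEB. A gene counted as measured if a probe of that name had a quality weight above 0 on every array. Of the 47 genes 46 were measured, out of 17938 measured genes with a symbol. LGMN, an asparaginyl endopeptidase, was the exception. Its only probe had a weight of 0 on all 4 arrays and was well above background on none, so it had no measured level.

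Lysosomes are acidic organelles in which hydrolases break down proteins, glycans, sulfated sugars and lipids that arrive by endocytosis, phagocytosis or autophagy. Most of these enzymes are tagged with mannose 6-phosphate in the Golgi and carried to the lysosome by sorting receptors, and the membrane proteins hold the pH gradient and export the products. TFEB binds a palindromic sequence, the CLEAR element, in promoters of many of these genes. Macrophages are rich in lysosomes, and monocytes enlarge this compartment as they mature.

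THP1 is a cell line of acute monocytic leukemia (AML M5) that carries the MLL-AF9 fusion. In the knockdown treatments cells received siRNA-A or siRNA-B, which target the fusion point, and in the control treatments non-targeting control siRNA-1 or control siRNA-2. All 4 treatments shared transfection on days 0, 3 and 6, medium with 10% fetal calf serum that was replaced on day 6 by medium with 0.5%, and harvest on day 8. Each array held a pool of 5 experiments, so 2 knockdown arrays were compared with 2 control arrays, and p-values measure only the spread between these pooled arrays. Such a design cannot reach a two-sided p below 0.333 in an exact permutation test of a single gene, and limma, which shares the estimate of the spread across 26219 probes, was used throughout. THP1 is a single cell line, and in bulk RNA fewer cells of a kind and less RNA per cell cannot be told apart. The slide carried siRNA-B and siRNA-A at its positions 1 and 2 and the control treatments at 3 and 4, and treatment cannot be told apart from position.

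The arrays were similar in brightness, with a median log2 intensity between 8.56 and 8.65, while 70.0% to 71.2% of spots were well above background on the knockdown arrays and 74.3% on either control array. All 10 measured markers of the monocytic line were well above background on every array. Of the fusion partners, both probes of MLLT3, the gene of AF9, fell (log2 fold change -0.76 and -0.63, adjusted p = 0.0640 and 0.182 in limma). The brightest MLL probe had a log2 fold change of -0.41 (adjusted p = 0.404 in limma), and the other MLL probes were at -0.08, -0.03 and 0.05 with overlapping arrays. All 63 probes of the measured members were well above background on every array. Because intensity depends on the probe, levels are compared between arrays and not between genes.

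Promoter sequences are shown for both genes that changed, GPNMB and FUCA1, and for 3 genes with a paired CLEAR core that did not pass the test. RefSeq windows of 300 bases, 250 before and 50 after a start site on GRCh38.p14, were found for 35 of the 47 genes. The sequences run 5′ to 3′ on the strand of the gene and end at the base before the start site. GPNMB lies at chr7:23246525-23246774 on the plus strand. FUCA1 lies at chr1:23868291-23868540 on the minus strand. The last 100 bases are shown for MCOLN1 at chr19:7522524-7522623, for GAA at chr17:80101481-80101580 and for LAMP1 at chr13:113297139-113297238, all on the plus strand. Capitals mark the letters CACATGA, the reverse complement of the M-box TCATGTG, in GPNMB, and the CLEAR core TCACGTGA in MCOLN1, GAA and LAMP1. The other core of LAMP1 spans the start site and lies partly outside the bases shown.
GPNMB: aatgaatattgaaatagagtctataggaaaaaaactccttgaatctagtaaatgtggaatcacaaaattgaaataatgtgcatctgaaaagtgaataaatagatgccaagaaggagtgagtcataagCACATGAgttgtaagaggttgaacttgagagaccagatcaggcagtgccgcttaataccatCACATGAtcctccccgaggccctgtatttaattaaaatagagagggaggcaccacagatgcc
FUCA1: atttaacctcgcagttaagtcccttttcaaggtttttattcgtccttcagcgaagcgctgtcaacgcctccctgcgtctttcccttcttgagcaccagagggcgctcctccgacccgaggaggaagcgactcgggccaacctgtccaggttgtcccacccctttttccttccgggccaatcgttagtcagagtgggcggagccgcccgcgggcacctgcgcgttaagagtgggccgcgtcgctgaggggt
MCOLN1: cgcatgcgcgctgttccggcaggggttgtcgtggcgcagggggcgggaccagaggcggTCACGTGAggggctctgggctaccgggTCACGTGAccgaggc
GAA: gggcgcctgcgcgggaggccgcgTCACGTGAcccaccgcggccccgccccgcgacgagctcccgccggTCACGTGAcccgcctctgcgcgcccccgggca
LAMP1: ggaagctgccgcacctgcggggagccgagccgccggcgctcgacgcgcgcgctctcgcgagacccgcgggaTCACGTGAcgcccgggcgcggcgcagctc

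The motifs were searched on both strands. The E-box CACGTG was present in 7.23% of all 34943 windows and in windows of 9 of the 35 members (25.7%). The CLEAR core, which contains the E-box, was present in 0.979% of windows and in 5 members (14.3%), namely CLN3, CTSA, GAA, LAMP1 and MCOLN1. The M-box TCATGTG, a site bound by the TFEB relative MITF, was present in 2.93% of windows and in 7 members (20%), among them GPNMB with matches that begin 123 and 62 bases before the start site. FUCA1 held none of these motifs. More than 1 window was listed for 11 of the 35 members, which gave them more chances of a match than a single window has. A match is a description of letters and not of binding. Of the 9 members with an E-box 0 were called by the test, with log2 fold changes between -0.20 and 0.21, and of the 5 with a CLEAR core 0 were called, with values between -0.07 and 0.19. Of the 7 members with an M-box 1 was called, which was GPNMB. Of all 46 measured members 2 were called, and of all genes 0.630% were called higher and 0.702% lower. With so few calls these counts cannot tell the motifs apart.

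After MLL-AF9 knockdown 2 of the 46 measured lysosomal genes passed the test. The membrane glycoprotein GPNMB rose 2.36-fold and the fucosidase FUCA1 1.48-fold, and the other 44 genes were not called. The rule for a call was that of the study, namely a p below 0.005 in limma before adjustment and, for a probe printed on several spots, a p below 0.05 over these spots. By this rule 2 members were called higher and 0 lower, where 0.630% of all genes were called higher and 0.702% lower. The members were chosen with earlier results of these data known, so these counts are not independent evidence of a direction. FUCA1 is among the transcripts that the study named as differentially expressed on these arrays. At a Benjamini-Hochberg adjusted p under 0.05 in limma 1 member remained, GPNMB, against 0.123% of all genes. Its adjusted p was under 0.05 in only 2 of 11 alternative settings, without weights and among probes well above background. With a p below 0.05 in limma before adjustment 4 members were higher and 1 was lower, against 3.26% and 4.74% of all genes. These were GPNMB, FUCA1, CTSB and ASAH1 on the one side and CTSL1 on the other.

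The log2 fold change was above 0 in 33 members and below 0 in 13, with a median of 0.05, while over all genes the median was -0.02 and 43.8% were above 0. Without GPNMB and FUCA1 the median was 0.04. The median of all members moved with single arrays, as did that of all genes. Without siRNA-B it was -0.01, beside -0.053 over all genes, with 22 members above 0 and 24 below. Without siRNA-A it was 0.10, beside 0.012 over all genes, with 37 members above 0 and 9 below. Without control siRNA-1 it was 0.036, beside -0.056, and without control siRNA-2 it was 0.072, beside 0.012. Both knockdown arrays lay above both control arrays in 13 members, against 15.0% of all genes, and below in 5 members, against 21.2%, while the arrays overlapped in 28. In 42 of the 46 members the 95% interval of the change lay within 1.5-fold in either direction, as in 16096 of all 17938 genes. The intervals of GPNMB, FUCA1, CTSB and SGSH reached beyond it. These intervals refer to intensities without background correction. For dim probes, such as that of ACP5 at 5.64 to 5.92, they do not bound the change in RNA.

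**Figure D1:**
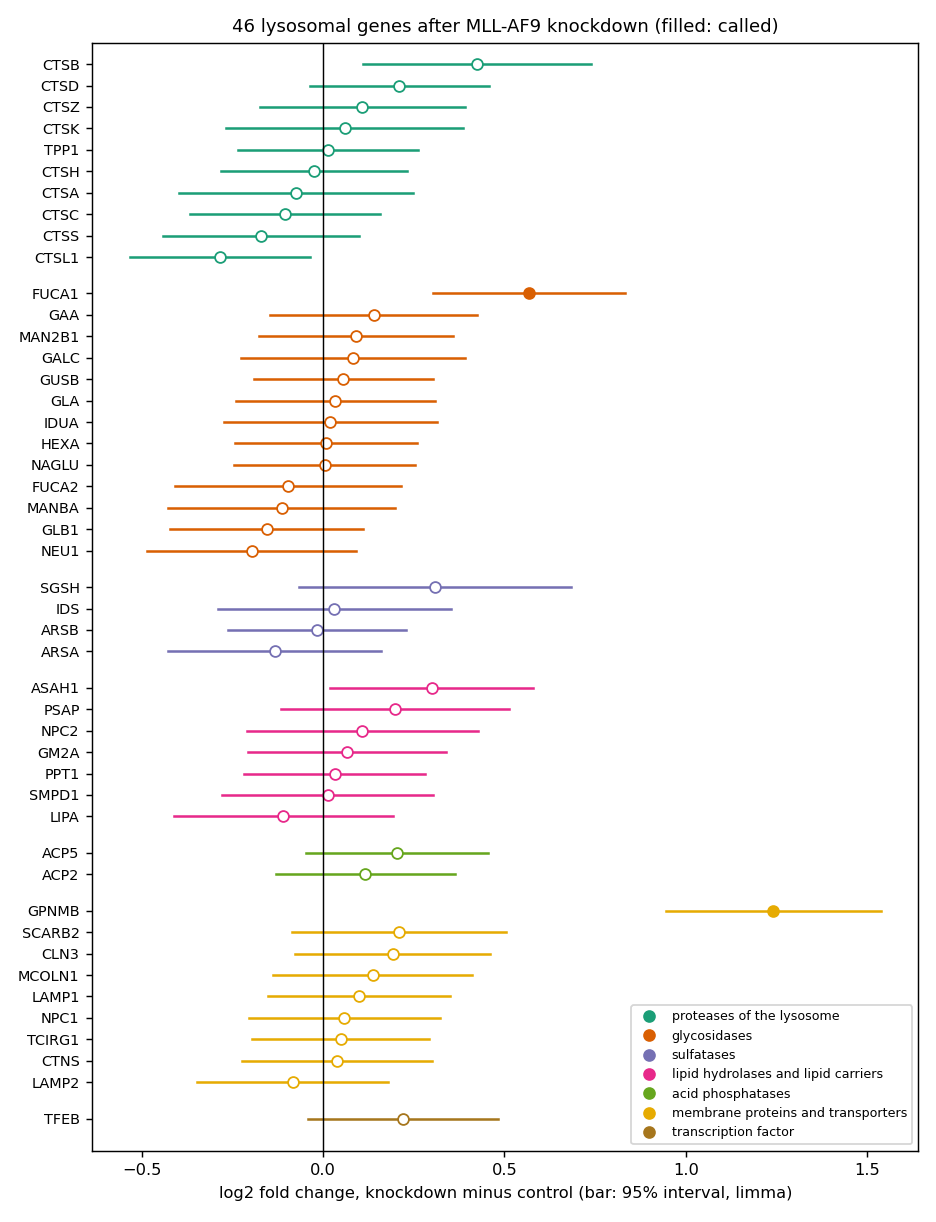
Log2 fold change of the 46 measured lysosomal genes (x axis, knockdown minus control, in log2 units), grouped by the role of the protein, with the 95% interval from limma as bars. Filled points mark the called genes GPNMB (1.24) and FUCA1 (0.57), and the other 44 genes lie between -0.28 and 0.42.

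Among proteins of the lysosomal membrane, GPNMB had the largest change of all members. GPNMB is a glycoprotein of lysosomal, phagosomal and melanosomal membranes that is abundant in macrophages. Its probe A_23_P134426, at chr7:23314496-23314555 on hg19, had a log2 intensity of 8.99 with siRNA-A, 9.21 with siRNA-B, 7.75 with control siRNA-1 and 7.97 with control siRNA-2. Both knockdown arrays lay more than 1 log2 unit above either control. The log2 fold change was 1.24 (limma SE 0.13, adjusted p = 0.0242), which is 2.36-fold. GPNMB was called in 11 of 11 alternative settings, with values between 1.13 and 1.39, by the p before adjustment. Its adjusted p in limma was between 0.128 and 0.543 after the other scalings and background corrections and between 0.507 and 1 without single arrays.

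Of the other membrane proteins none was called. LAMP1 and LAMP2, the abundant glycoproteins that line the inner face of the membrane, are the usual markers of lysosomal mass. LAMP1 had log2 intensities of 16.41 and 16.32 with siRNA-A and siRNA-B and of 16.29 and 16.24 with the controls. These 4 values lay close together, with a log2 fold change of 0.10 (95% interval -0.15 to 0.35, adjusted p = 0.877 in limma). The value of LAMP1 was 0.23 after quantile and 0.20 after cyclic loess normalization, 0.06 with the processed signal and 0.06 without siRNA-A, and none of these was called. LAMP2 was at 13.07 with siRNA-A and at 13.24 on each of the other arrays, a log2 fold change of -0.08 (95% interval -0.35 to 0.18, adjusted p = 0.903 in limma). Only the siRNA-A array was lower, and without it the value was 0.0038. The other LAMP2 probes, which are annotated to different transcripts of the gene, gave 0.13 and 0.05 with overlapping arrays.

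The remaining membrane proteins had log2 fold changes between 0.04 and 0.21. SCARB2, the sorting receptor of glucocerebrosidase, was at 0.21 (0.07 for siRNA-A and 0.35 for siRNA-B against the mean of the controls), CLN3 at 0.19 and the calcium channel MCOLN1 at 0.14. The cholesterol exporter NPC1 was at 0.06, the proton pump subunit TCIRG1 at 0.05 and the cystine exporter CTNS at 0.04. Of the 9 membrane proteins 8 were above 0 and 5 had both knockdown arrays above both control arrays, against 15.0% of all genes.

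**Figure D2:**
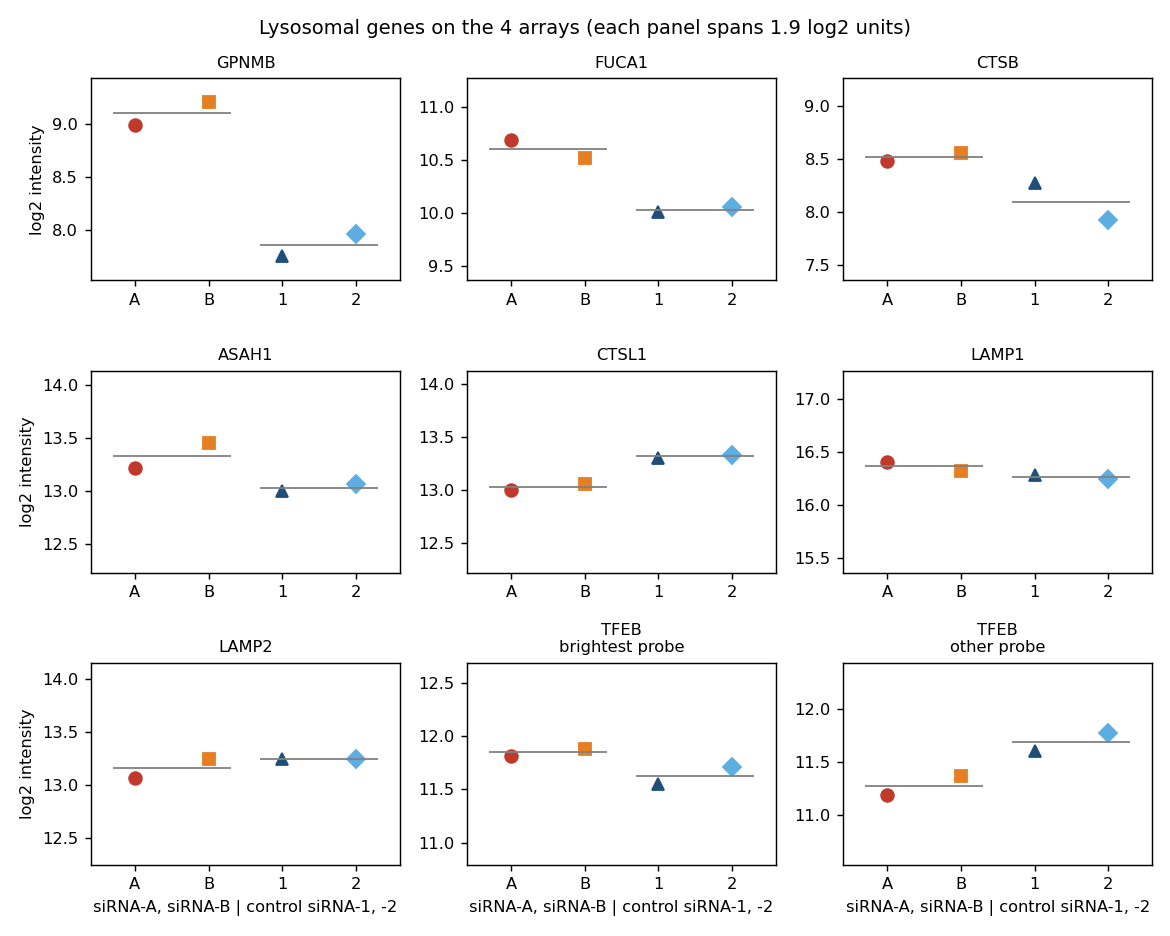
Log2 intensity (y axis) of 8 lysosomal genes on the knockdown (A, B) and control (1, 2) arrays (x axis), with grey lines at the mean of each group and TFEB shown for both of its probes. GPNMB and FUCA1 separate by more than the spread within either group, LAMP1 and LAMP2 have group means within 0.10 of each other, and the TFEB probes lie in opposite order.

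Glycosidases remove sugars from glycoproteins, glycolipids and glycosaminoglycans. FUCA1, the fucosidase that takes fucose off glycoproteins and glycolipids, was the only one of 13 that was called. Its probe A_23_P11543, at chr1:24171850-24171909 on hg19, had a log2 intensity of 10.69 with siRNA-A, 10.51 with siRNA-B, 10.00 with control siRNA-1 and 10.06 with control siRNA-2. Both knockdown arrays lay above both controls. The log2 fold change was 0.57 (limma SE 0.12, adjusted p = 0.214), which is 1.48-fold.

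FUCA1 was printed on 10 identical spots per array, whose SD within an array was between 0.14 and 0.24. The change was positive at 10 of 10 spots and ranged from 0.42 to 0.72. On the siRNA-A array no spot was below 10.42 and on the control siRNA-1 array none was above 10.26. On the siRNA-B array the lowest spot, at 10.28, was at the level of the highest spot of control siRNA-2, also at 10.28. Identical spots share the RNA of 1 pool and are not replicates of the treatment. The call of FUCA1 was lost in 4 of 11 settings, namely with the processed signal (0.62) and on omission of siRNA-A (0.48), of control siRNA-1 (0.54) or of control siRNA-2 (0.59), and the value stayed positive in each.

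**Figure D3:**
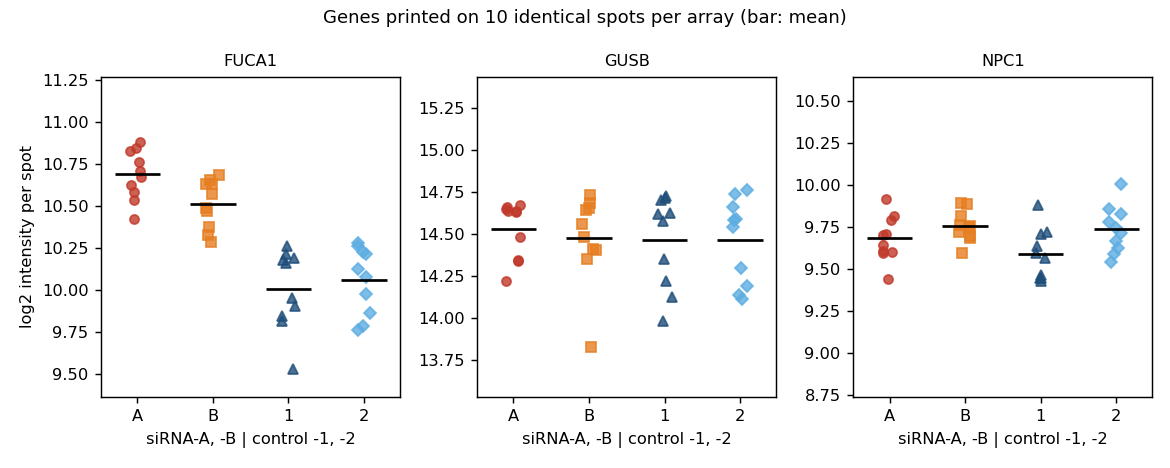
Log2 intensity of single spots (y axis) for the 3 lysosomal genes printed on 10 identical spots per array, on the knockdown (A, B) and control (1, 2) arrays (x axis), with bars at the mean. The FUCA1 spots of both knockdown arrays are shifted upward, while those of GUSB and NPC1 overlap on all 4 arrays.

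The related fucosidase FUCA2 was not called, with log2 fold changes of -0.10 and -0.05 on its probes. GUSB, the beta-glucuronidase, and NPC1 were printed on 10 spots as well. The change of GUSB was 0.06 and positive at 4 of 10 spots, and that of NPC1 was 0.06 and positive at 8 of 10. Among the remaining glycosidases, the glycogen-degrading GAA was at 0.14, the beta-galactosidase GLB1 at -0.16 and the sialidase NEU1 at -0.20. HEXA, the alpha subunit of beta-hexosaminidase, was at 0.01 and NAGLU, which degrades heparan sulfate, at 0.00. Of the 13 glycosidases 9 were above 0 and 4 below, and in 10 the siRNA-B array was brighter than the siRNA-A array.

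The lysosomal proteases were divided, with 5 of 10 above 0, 5 below and 0 called. CTSB, the cysteine protease cathepsin B, had log2 intensities of 8.48 and 8.56 with siRNA-A and siRNA-B and of 8.27 and 7.92 with the controls. Both knockdown arrays lay above both controls, and the controls differed from each other by nearly as much as the groups. The log2 fold change was 0.42 (limma SE 0.14, adjusted p = 0.490), with 0.25 without control siRNA-2 and 0.60 without control siRNA-1, and CTSB was called in 0 of 11 settings. CTSL1, the gene of cathepsin L, was chosen for description after its values were seen. It was at 13.00 and 13.06 with siRNA-A and siRNA-B and at 13.30 and 13.34 with the controls, and the groups did not overlap. Its log2 fold change was -0.28 (limma SE 0.11, adjusted p = 0.567), and it was called in 0 of 11 settings.

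The aspartic protease CTSD was at 0.21 and the carboxypeptidase CTSZ at 0.11. CTSK, known for its collagenase activity in osteoclasts, was at 0.06 and CTSH at -0.02. CTSA, which also protects beta-galactosidase and NEU1, was at -0.07, CTSC at -0.10 and CTSS, which processes the invariant chain of MHC class II, at -0.17. The other CTSC probes were at -0.28 and -0.17, and on each both knockdown arrays lay below both controls. The tripeptidyl peptidase TPP1 was at 0.01 on its brightest probe and at -0.18 on the other.

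Lipid hydrolases and lipid carriers had 6 of 7 members above 0, where 43.8% of all genes were above 0, and 0 called. The siRNA-B array was brighter than the siRNA-A array in 6 of these 7, where this held for 63.9% of all genes. The differences siRNA-A minus control siRNA-1 and siRNA-B minus control siRNA-2 had the same sign in 3 of 7, against 53.9% of all genes. ASAH1, the acid ceramidase, was also chosen after its values were seen. Its log2 intensities were 13.21 and 13.45 with siRNA-A and siRNA-B and 13.00 and 13.06 with the controls, so that both knockdown arrays were above both controls. The log2 fold change was 0.30 (limma SE 0.12, adjusted p = 0.597), and ASAH1 was called in 1 of 11 settings, after normexp background correction with quantile normalization (0.34). It was at 0.18 without siRNA-B and at 0.42 without siRNA-A.

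PSAP, the precursor of the saposins, was at 0.20 and 0.24 on its probes, with overlapping arrays. The sterol carrier NPC2 was at 0.11, the ganglioside activator GM2A at 0.07, the thioesterase PPT1 at 0.03 and the sphingomyelinase SMPD1 at 0.01. LIPA, the acid lipase, was at -0.11. Of the sulfatases 2 of 4 were above 0 and 0 were called. SGSH, which acts on heparan sulfate, was at 0.31 (limma SE 0.16, adjusted p = 0.715). Its value came from siRNA-B at 8.73, since siRNA-A at 8.27 lay between the controls at 8.30 and 8.08. It was at 0.07 without siRNA-B, 0.54 without siRNA-A and 0.20 without control siRNA-2. IDS was at 0.03, ARSB at -0.02 and ARSA at -0.13. The acid phosphatases ACP5, the tartrate-resistant enzyme, and ACP2 were at 0.20 and 0.12 on their brightest probes, and both knockdown arrays lay above both controls in each. The other ACP2 probe was at -0.43 with overlapping arrays.

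The probes of TFEB disagreed. TFEB is the transcription factor that drives many lysosomal genes. The brightest probe, A_33_P3344618 at chr6:41651718-41651777 on hg19, had log2 intensities of 11.82 and 11.88 with siRNA-A and siRNA-B and of 11.55 and 11.71 with the controls. The other probe, A_33_P3398634 at chr6:41658820-41658879, had 11.19 and 11.37 with siRNA-A and siRNA-B and 11.60 and 11.77 with the controls. The groups did not overlap on either probe, and their order was opposite. The log2 fold changes were 0.22 (limma SE 0.11, adjusted p = 0.703) and -0.41 (limma SE 0.12, adjusted p = 0.450), and neither was called. The former was at 0.14 without control siRNA-1, and the latter was called in 1 of 11 settings, after normexp with quantile normalization (-0.37). Within an array the difference between the probes was 0.63 and 0.51 with siRNA-A and siRNA-B and -0.05 and -0.07 with the controls. Both probes are annotated to the same RefSeq transcripts. The direction of TFEB therefore depends on the probe. The probe that counts TFEB among the members above 0 was the brighter one over all 4 arrays but the dimmer one on both control arrays, so that the knockdown arrays decided this choice.

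Several probes were present for 13 members. In 7 of them all probes pointed in the same direction and in 6 they did not, and 0 of their probes were called. The members with probes in both directions were ACP2, GALC, LAMP2, PPT1, TFEB and TPP1. For GPNMB and FUCA1 a single probe was measured, so that no second probe bears on their calls.

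The siRNAs were compared in pairs of arrays that share none, siRNA-A minus control siRNA-1 and siRNA-B minus control siRNA-2. GPNMB had differences of 1.24 and 1.25, and FUCA1 of 0.68 and 0.45. CTSB was at 0.21 and 0.64, ASAH1 at 0.21 and 0.39 and CTSL1 at -0.30 and -0.27. SGSH was at -0.04 and 0.65. The sign was the same in both pairs in 26 of 46 members (56.5%), against 53.9% of all genes. With the controls exchanged it was again 26 of 46, against 49.7% of all genes. In 35 of 46 members (76.1%) the siRNA-B array was brighter than the siRNA-A array, where this held for 63.9% of all genes, and the median difference was 0.11 against 0.07.

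**Figure D4:**
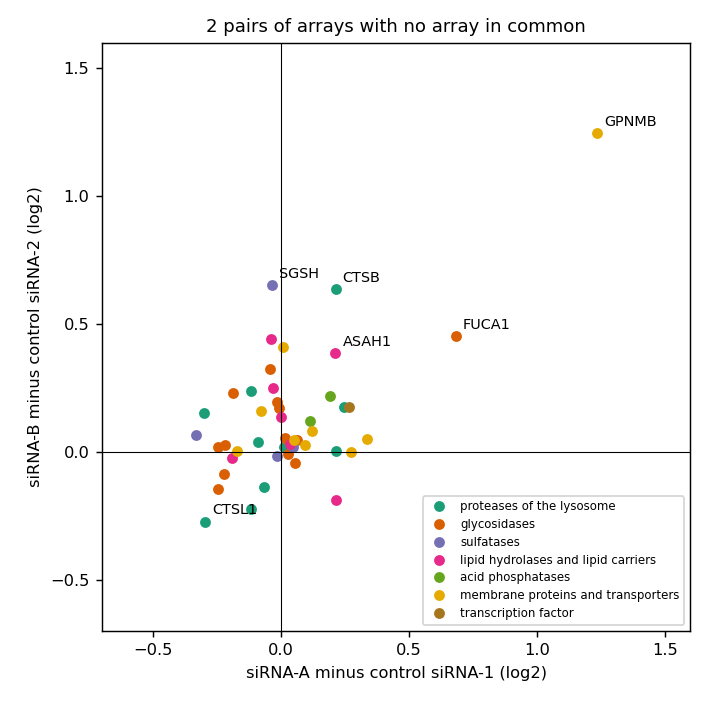
Difference in log2 intensity between siRNA-A and control siRNA-1 (x axis) and between siRNA-B and control siRNA-2 (y axis) for the 46 lysosomal genes, coloured by role. GPNMB (1.24 and 1.25) and FUCA1 (0.68 and 0.45) lie far up the diagonal, and most other genes scatter around 0.

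The rest of the lysosome was described with lists of genes that are not members. Of 87 further lysosomal genes 0 were called in limma, against 0.630% of all genes called higher and 0.702% lower. At such low shares 0 calls do not set a list of this size apart from all genes. The log2 fold change was above 0 in 40 and below 0 in 47, where 43.8% of all genes were above 0. With a p below 0.05 in limma before adjustment 3 were higher and 5 lower, against 3.26% and 4.74% of all genes. The median log2 fold change of these 87 genes was -0.016, beside -0.021 over all genes. Among 30 further hydrolases the highest value was that of the acid nuclease DNASE2 (0.41, adjusted p = 0.580 in limma) and the lowest that of the aspartylglucosaminidase AGA (-0.38, adjusted p = 0.440). Among 36 further membrane proteins these were CLN6 (0.26, adjusted p = 0.662 in limma) and the ion channel TMEM175 (-0.29, adjusted p = 0.581). Among 21 subunits of the V-ATPase, the proton pump that acidifies the organelle, they were ATP6V0D1 (0.31, adjusted p = 0.579 in limma) and ATP6V1C2 (-0.33, adjusted p = 0.506).

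In the pathway that delivers enzymes to the lysosome 1 of 31 genes was called, against 0.630% of all genes called higher and 0.702% lower. This was SORL1, a sorting receptor that cycles between the Golgi and endosomes, with log2 intensities of 12.52 and 12.50 after knockdown and 11.89 and 11.94 in the controls. SORL1 rose, with a log2 fold change of 0.59 (limma SE 0.11, adjusted p = 0.153), and its call was lost without any 1 of the arrays (0.57 to 0.62). AP3S2, a subunit of the AP-3 adaptor, had the lowest value of the list (-0.32, adjusted p = 0.519 in limma).

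Of 21 genes of nutrient sensing and MiT/TFE control 0 were called in limma, against 0.630% of all genes called higher and 0.702% lower. RRAGD, a Rag GTPase, was the highest at 0.42 (adjusted p = 0.415) and TFE3, a relative of TFEB, the lowest at -0.23 (adjusted p = 0.714). MITF was at 0.29 (adjusted p = 0.673). Of 34 autophagy genes 0 were called, with 13 above 0 and 21 below, where 43.8% of all genes were above 0. They lay between SQSTM1 at 0.18 (adjusted p = 0.784 in limma) and KIAA0652, the array's name for ATG13, at -0.31 (adjusted p = 0.547). Of 6 cystatins, which inhibit cysteine cathepsins, 0 were called, between CST7 at 0.14 and CST2 at -0.11. At the low shares of all genes called, 0 calls do not set lists of these sizes apart from all genes.

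**Figure D5:**
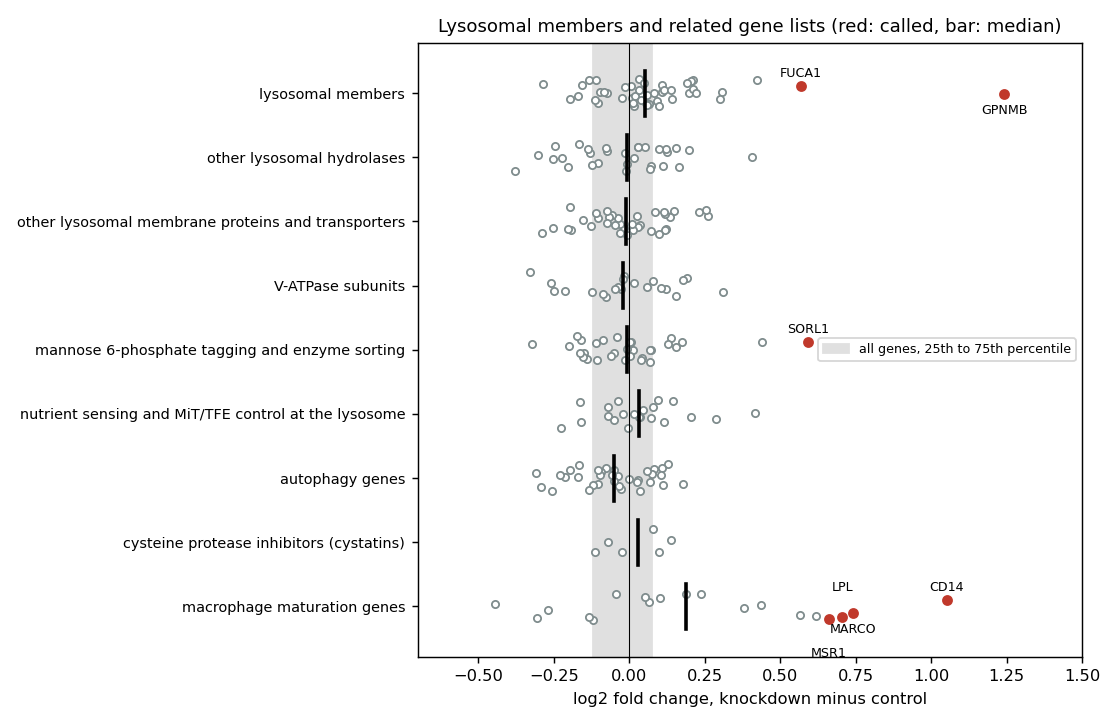
Log2 fold change (x axis, knockdown minus control) of the lysosomal members and of 8 further gene lists (y axis), with a point per gene, called genes in red and a black bar at the median. The grey band spans the 25th to 75th percentile of all genes. The lysosomal lists centre within this band, and only the list of macrophage maturation genes has its median (0.19) to the right of it.

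Of 19 measured genes of macrophage maturation 4 were called higher and 0 lower, against 0.630% and 0.702% of all genes. The log2 fold change was above 0 in 13 and below 0 in 6, with a median of 0.19. Both knockdown arrays lay above both control arrays in 10 and below in 3, against 15.0% and 21.2% of all genes. CD14, the lipopolysaccharide co-receptor, had log2 intensities of 8.39 and 8.71 with siRNA-A and siRNA-B and of 7.52 and 7.47 with the controls, and rose by 1.05 (adjusted p = 0.0357 in limma, and 0.05 or above in 9 of 11 settings). The scavenger receptors MARCO and MSR1 rose by 0.74 and 0.66 and the lipoprotein lipase LPL by 0.71 (adjusted p between 0.120 and 0.230 in limma). The call of CD14 was lost without control siRNA-2 (1.03). Without siRNA-A, MARCO (0.64), LPL (0.58) and MSR1 (0.49) lost their calls, as they did without control siRNA-1 (0.81, 0.59 and 0.75) and control siRNA-2 (0.66, 0.82 and 0.57), and LPL also without siRNA-B (0.83). With the processed signal MARCO (0.69) and LPL (0.70) were not called, and MSR1 was not called after quantile (0.65) or cyclic loess normalization (0.64). MSR1 ranged from 0.42, not called, after normexp with quantile normalization to 1.55 with the processed signal. NR1H3, the liver X receptor alpha, was at -0.44 (adjusted p = 0.395 in limma) and was not called. This list was chosen with results of these arrays known and is not independent evidence of its direction.

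The level of the cell line's own markers was set beside these results. The log2 of the summed intensity of the 10 markers of the monocytic line was between 15.9 and 16.2 on the knockdown arrays. It was between 16.1 and 16.2 on the control arrays. Bright markers weigh most in such a sum. Of the markers of other cells reported, 4 of T cells, 5 of B cells, 4 of epithelial cells and 3 of fibroblasts were measured and 0 were called, and in each of these lists the summed levels of knockdown and control arrays overlapped. CDH1 had the highest value of these lists, 0.36 (adjusted p = 0.597 in limma). The erythroid markers HBB and ALAS2 were at 0.35 and 0.07 (adjusted p = 0.504 and 0.920 in limma), with HBB at 5.44 and 5.59 on the knockdown arrays and 5.16 and 5.13 on the control arrays. Both knockdown arrays thus lay above both controls for HBB, unlike the summed levels of the lists above. HBB was dim, near the intensity of probes not well above background, so the size of its change is uncertain. The part of the share of spots above background and of these markers in the changes of GPNMB and FUCA1 was not tested.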

How the data were processed

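Total RNA of THP1 cells was labelled with Cy3 and hybridised to 4 single-colour Agilent 4x44K arrays, 2 knockdown and 2 control, each from a pool of 5 experiments. The authors extracted the arrays with Agilent Feature Extraction 10.5.1.1 (per the labels) and deposited per spot an intensity, which in 100% of spots was the median pixel signal and is neither background corrected nor normalized, and a quality weight, whose making is not given in the sources used here. After removal of 1377 control spots from 44495, the 33323 spots weighted above 0 on all 4 arrays were averaged to 26219 probes. The log2 of the deposited intensity was fitted in R 4.3.3 with limma 3.58.1, using these weights and no covariate. All p-values are two-sided, and adjusted p-values are Benjamini-Hochberg over all probes. The self-written steps were tested on simulated data.

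A gene is given by its brightest probe. Probe positions are on hg19 (per the file headers) and promoters on GRCh38.p14, and positions were not converted. Values per array are given for members that were called, for members not called whose arrays did not overlap and whose log2 fold change was at least 0.3 in size, and for TFEB, LAMP1, LAMP2 and GPNMB, and ASAH1, CTSL1 and SGSH were added after their values were seen. Of the further lists, called genes and otherwise the highest and lowest gene are named, beside CD14. Beyond this rule AP3S2, MITF, NR1H3, CDH1, HBB and ALAS2 were named after their values were seen. A further marker is not reported here. The members and lists were chosen with earlier results of these data known. Alternatives were quantile, cyclic loess and median scaling, the processed signal, normexp with an offset of 50, no weights, a filter on dim probes, other call rules and probes, and the omission of each array. The number of arrays limits the precision.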

Additional observations from a re-analysis of the deposited data

How the results depend on the processing

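GPNMB was called in 11 of 11 settings, and FUCA1 in 7 of 11. The number of members called was 3 after normexp with quantile normalization, 1 with the processed signal, 1 at an adjusted p under 0.05 and 5 with a p below 0.05 before adjustment in limma, and between 1 and 2 without single arrays, where a group's lone array was taken to vary as the rest do. Of further lysosomal genes, 0 as reported, 1 was called after normexp with quantile normalization and 8 with a p below 0.05 before adjustment, and 0 without any single array. The median log2 fold change of the members, 0.05 as reported, was 0.103 after quantile normalization and 0.109 after cyclic loess normalization. It was 0.0883 after normexp with quantile normalization and between -0.0071 and 0.0999 without single arrays. The median of all genes lay between -0.056 and 0.012 and moved in the same direction on each omission of an array. LAMP2 ranged from -0.17 to 0.0038 without single arrays and changed sign without knockdown replicate 3, the siRNA-A array. The cause of these shifts was not tested. No paired analysis was possible because the groups share no replicate numbers. With 2 pooled arrays per group small changes were not detectable, and a member that did not pass the test is not shown to be unchanged.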
